A study of Mus musculus with 6 samples.

Results

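Vcam1 and 9 integrin subunit genes were followed in red pulp macrophages, the macrophages of the spleen that clear aged red blood cells and recycle their iron. The members were Vcam1, Itgad, Itgam, Itgax, Itgal, Itga4, Itga9, Itgb1, Itgb2 and Itgb7, found by matching the accession of each array probe to a gene symbol. This gave 10 genes with 16 probes, of 20018 named genes and 55681 probes on the array. 5 of the genes had 1 probe and the other 5 had more than 1.

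The cells came from 3 Bach2 knockout and 3 wild-type C57BL/6 mice of 8 to 9 weeks, 1 array with a single Cy3 channel per mouse. Bach2 encodes a transcriptional repressor that binds Maf recognition elements. Red pulp macrophages were sorted by flow cytometry from spleen. The sources used here do not give the sort markers, the Bach2 allele or whether the deletion was limited to some cells. All 3 knockout mice and wild-type replicates 1 and 2 were male, and wild-type replicate 3 was female. The labels carry the tag P6 for replicate 3 of both genotypes and do not explain it.

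Integrins are receptors built from an α and a β chain that bind other cells, matrix proteins and complement fragments. VCAM-1 is a surface protein of the immunoglobulin family that is used in flow cytometry to recognise red pulp macrophages, and its receptors are the integrins α4β1, α4β7 and α9β1. The leukocyte integrins share the β2 chain, with αD, αM, αX or αL as its partner, and human αDβ2 also binds VCAM-1.

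A level is log2 of the processed signal minus the log2 of that array's 75th percentile, so that 0 is the 75th percentile of the array. Levels of different probes are not set against each other, because probes differ in brightness for the same amount of RNA. The 6 arrays shared 1 slide and 1 scan. The genotype cannot be told apart from the array row, which was row 2 for knockout and row 1 for wild type, but 1 mouse of each genotype, with the same replicate number, lay in each of the 3 array columns. Per array, 37.5% to 51.5% of the spots were well above background, no spot was saturated, and the number of arrays limits the precision. The brighter Bach2 probe had levels of -2.24, -3.72 and -1.15 in knockout cells and -0.90, 0.02 and -1.35 in wild-type cells, a difference of -1.62 ± 0.77 (SE, n = 3 each, limma adjusted p = 1). It was well above background on 2 of 3 knockout and 3 of 3 wild-type arrays, and its groups overlapped. The other Bach2 probe was well above background on none of the 6 arrays. The deleted part of the gene is not given, so this checks the labels only in part.

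No probe of Vcam1 or of the 9 integrin genes passed the test between genotypes. Of the 16 probes, 0 had an adjusted p under 0.05 in limma's test, against 0% of all 55681 probes, and 0 had an unadjusted p under 0.05, against 0.948% of all probes (292 higher and 236 lower in knockout cells). None of the 16 separated the genotypes: 0 were higher on every knockout array than on every wild-type array, against 0.684% of all probes, and 0 were lower on every knockout array, against 1.85%. Taking the brightest probe of each gene, 6 of 10 genes were numerically lower and 4 higher in knockout cells, with a median difference of -0.25 on the log2 scale. Over all probes the median difference was 0.10 with 43.5% below 0, and over the 5911 probes whose mean level was at least 3, the range in which most of these genes lie, it was -0.19 with 74.7% below 0. The order of the members and the bright probes depended on the arrays. Without knockout replicate 3 the members' median was -0.49 and that of the bright probes -0.07. Without wild-type replicate 1 they were -0.53 and -0.28. The members lay above the bright probes without knockout replicate 1 (-0.02 against -0.16), knockout replicate 2 (-0.08 against -0.32) or wild-type replicate 3 (-0.09 against -0.27). Without wild-type replicate 2 the medians were -0.03 and -0.02.

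**Figure D1:**
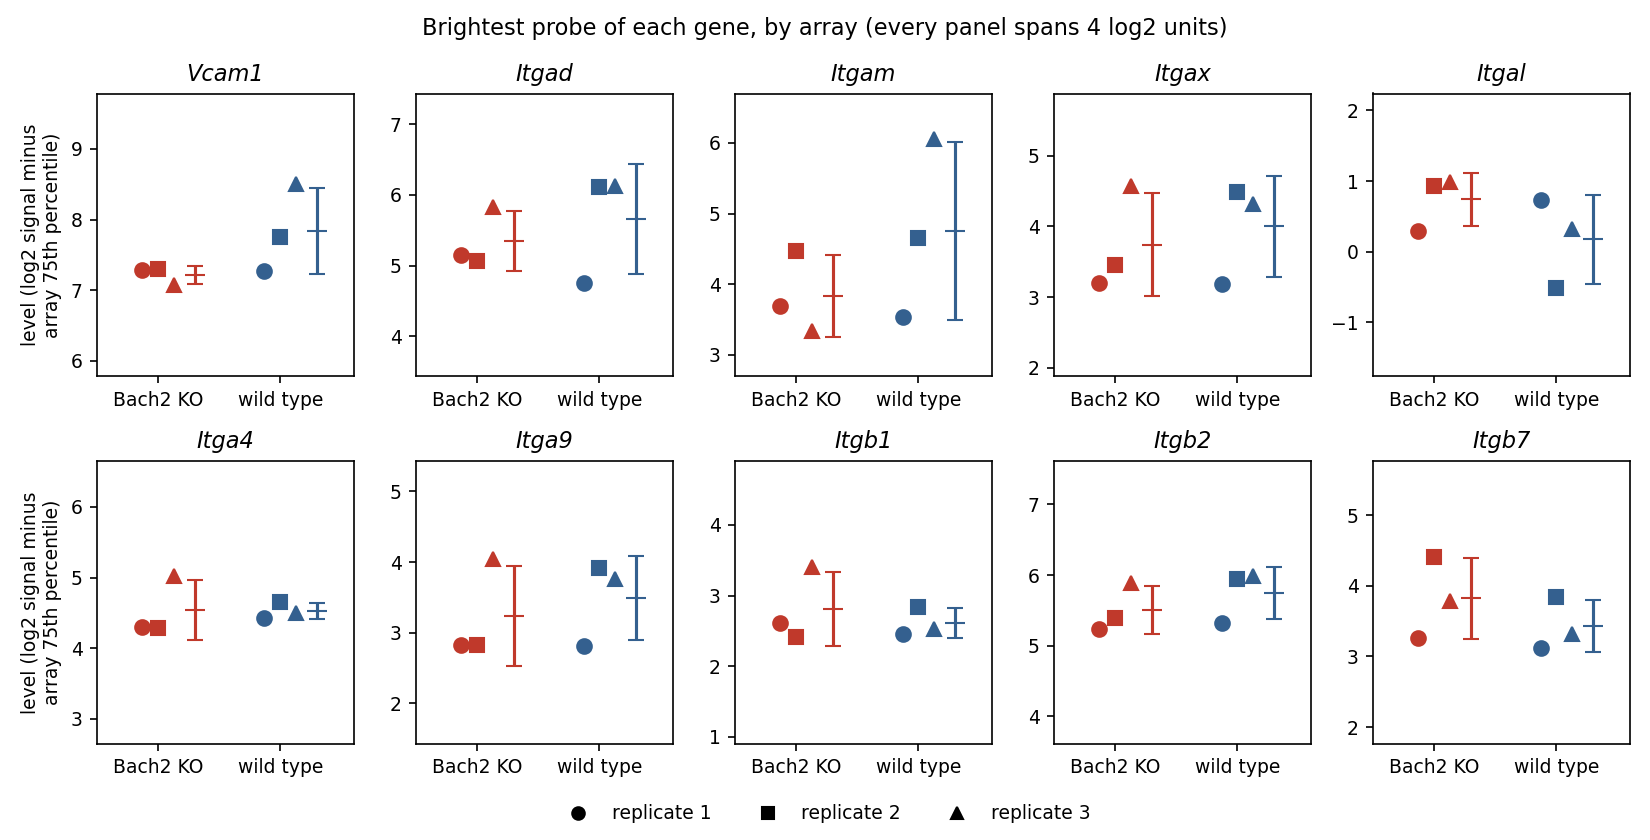
Level of the brightest probe of each gene on every array (log2 signal, with the 75th percentile of that array set to 0), Bach2 knockout in red on the left and wild type in blue on the right, with the mean and SD (n = 3 each) beside the points. The genotypes overlap for all 10 genes, and the wild-type points of Vcam1 and Itgam are spread more widely than the knockout points.

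Vcam1 was measured by 2 probes of the same transcript. Its brighter probe, A_51_P210956, had levels of 7.29, 7.30 and 7.07 in knockout cells and 7.28, 7.75 and 8.50 in wild-type cells. The knockout arrays lay close together, wild-type replicate 1 lay among them, and wild-type replicate 3 was the highest of the 6. The means were 7.22 ± 0.13 in knockout cells and 7.84 ± 0.61 in wild-type cells (SD, n = 3 each), a difference of -0.62 ± 0.63 (SE). Its 95% interval ran from -1.99 to 0.75, and limma's test gave an adjusted p of 1. The difference was -0.29 without wild-type replicate 3, -0.22 without both mice tagged P6 and -0.07 with quantile normalization. The dimmer probe, A_52_P520495, had levels of 3.79, 2.45 and 3.90 in knockout cells and 3.51, 3.79 and 3.68 in wild-type cells. Here knockout replicate 2 was low and the other 5 arrays lay close together, so that the dimmer probe gave -0.28 ± 0.65 (SE, 95% interval -1.70 to 1.15). The probes agreed in sign but differed in which array stood apart.

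The brighter Vcam1 probe lay near the top of the signal range. Its unscaled signal was 213925, 163214 and 359074 in knockout cells and 237673, 308918 and 276720 in wild-type cells, which is 27.8% to 66.2% of the highest probe signal on the same array. The highest signal was 2.20 times the lowest, while the 75th percentile used for scaling ranged 3.49-fold, with 2664.2 on knockout replicate 3 as the highest value and 763.9 on wild-type replicate 3 as the lowest. The unscaled order of the arrays was thus not the scaled order: knockout replicate 3 had the highest Vcam1 signal and the lowest Vcam1 level.

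The narrow range was shared by other probes of that brightness. Among probes well above background on all 6 arrays, the median ratio of the highest to the lowest signal was 5.75 for the 5269 probes with a mean level of 0 to 2, 4.17 for the 2411 with a level of 4 to 6, and 2.09 for the 829 at 7 and above. The dimmer Vcam1 probe varied 7.06-fold in signal, against a median of 5.01 for the 4386 probes with a level of 2 to 4, its band. The median difference between genotypes of the probes at 7 and above was -0.39, made up of 0.02, 0 and -1.14 in array columns 1, 2 and 3. Vcam1's brighter probe differed by 0, -0.44 and -1.43 in those columns, and its dimmer probe by 0.28, -1.34 and 0.23. The -1.43 of the brighter probe in column 3 stands beside -1.14 for the probes of its brightness, and the part of signal compression in the Vcam1 difference was not tested. In bulk RNA, fewer cells of a type and less RNA per cell cannot be told apart.

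**Figure D2:**
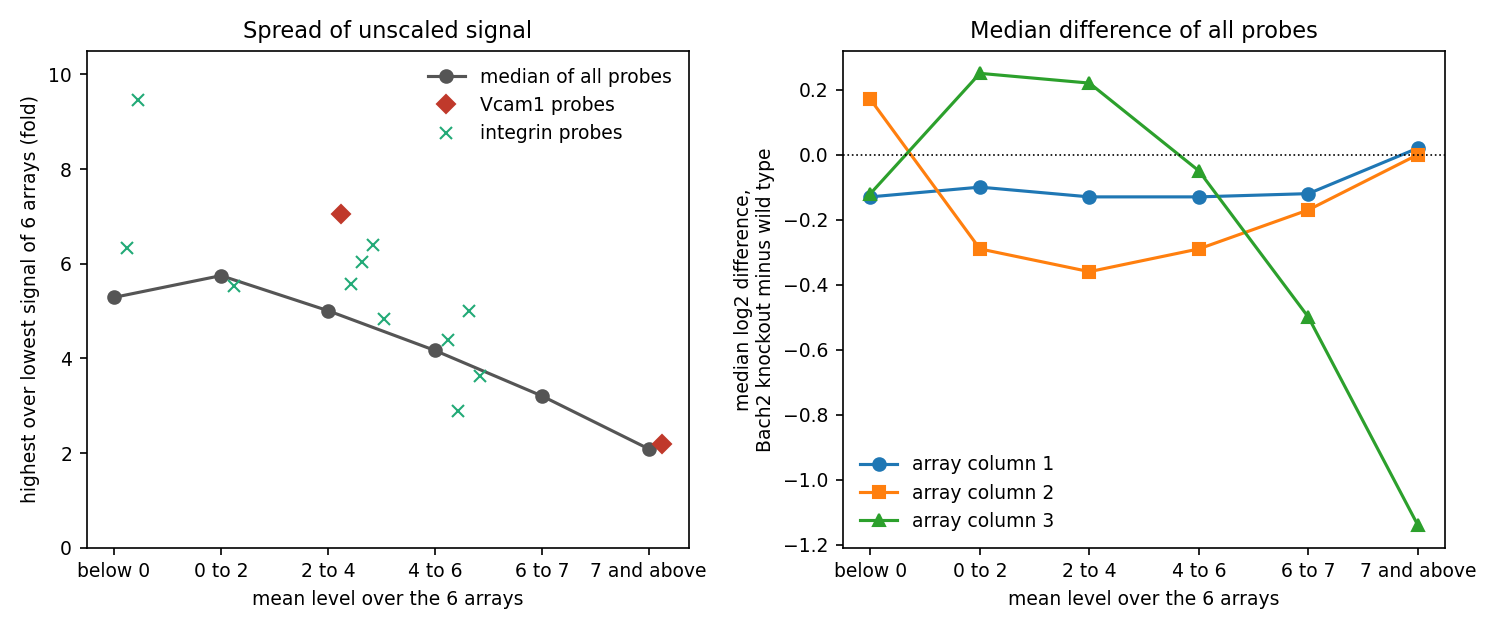
Left, highest over lowest unscaled signal of the 6 arrays (fold, linear axis) by band of mean level, with the median of all probes well above background on all arrays as a line, the Vcam1 probes as red diamonds and the integrin probes as green crosses, shifted sideways within a band. Right, median log2 difference, Bach2 knockout minus wild type, of all probes in each band, by array column: in column 3 it is -1.14 at levels of 7 and above, against 0.02 and 0 in columns 1 and 2.

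The receptors of VCAM-1 are built from the α4, α9, β1 and β7 chains. Itga4, the α chain shared by α4β1 and α4β7, had levels of 4.30, 4.28 and 5.02 in knockout cells and 4.43, 4.65 and 4.50 in wild-type cells on its brighter probe, A_55_P2040026. Knockout replicate 3 was the highest array, the other 2 knockout arrays were the lowest, and the means of 4.54 ± 0.42 in knockout cells and 4.53 ± 0.11 in wild-type cells (SD) nearly coincided. The difference of 0.01 ± 0.61 (SE) has a 95% interval of -1.33 to 1.34, so that changes of more than 2-fold either way lie within it. The other Itga4 probe was well above background on none of the 6 arrays.

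Itga9, whose product pairs with β1 and also binds matrix proteins such as tenascin, had levels of 2.82, 2.83 and 4.05 in knockout cells and 2.81, 3.91 and 3.76 in wild-type cells. Replicate 1 of both genotypes and knockout replicate 2 were low and the other 3 arrays high, and the genotypes overlapped. The difference was -0.26 ± 0.67 (SE, 95% interval -1.71 to 1.20).

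Itgb1, the β chain of many matrix and cell receptors, was measured by 2 probes that gave opposite signs. On the brighter, A_66_P113059, levels were 2.61, 2.41 and 3.40 in knockout cells and 2.45, 2.84 and 2.53 in wild-type cells, a difference of 0.20 ± 0.62 (SE, 95% interval -1.15 to 1.56). Knockout replicate 3 was the highest array, and without it the difference was -0.09. On the dimmer, A_52_P351816, levels were -0.33, -0.31 and -0.64 in knockout cells and 0.33, 1.50 and -0.83 in wild-type cells, a difference of -0.76 ± 0.71 (SE, 95% interval -2.31 to 0.79). There wild-type replicate 2 was the highest and wild-type replicate 3 the lowest array. No direction can be given for Itgb1.

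Itgb7, the β chain that pairs with α4 in receptors of lymphocytes that home to the gut, had levels of 3.26, 4.41 and 3.79 in knockout cells and 3.12, 3.84 and 3.32 in wild-type cells. Knockout replicate 2 was the highest array, and each knockout array was above the wild-type array of its column, by 0.14, 0.57 and 0.47. The means were 3.82 ± 0.57 in knockout cells and 3.43 ± 0.37 in wild-type cells (SD, n = 3 each), and the difference of 0.39 ± 0.64 (SE, 95% interval -0.99 to 1.78) was smaller than its SE. Without knockout replicate 2 it was 0.10.

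The β2 chain and its α partners came next. Itgb2, which encodes β2, had levels of 5.24, 5.39 and 5.89 in knockout cells and 5.32, 5.94 and 5.99 in wild-type cells. Replicate 1 of both genotypes and knockout replicate 2 were the low arrays, and the difference was -0.24 ± 0.62 (SE, 95% interval -1.59 to 1.10), with -0.08, -0.54 and -0.11 in the 3 columns. Itgad, which encodes αD, had levels of 5.15, 5.07 and 5.83 in knockout cells and 4.75, 6.11 and 6.12 in wild-type cells. Wild-type replicate 1 was the lowest array and the other 2 wild-type arrays the highest, so that all knockout values lay inside the wild-type range. The Itgad difference was -0.31 ± 0.66 (SE, 95% interval -1.76 to 1.13).

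Itgam encodes αM, also called CD11b, the α chain of complement receptor 3 and present at a low level on red pulp macrophages compared with monocytes and neutrophils. Its brightest probe, A_55_P1977934, had levels of 3.69, 4.47 and 3.34 in knockout cells and 3.54, 4.65 and 6.06 in wild-type cells. Wild-type replicate 3 was the highest array and the other 5, of both genotypes, lay between 3.34 and 4.65. The means were 3.83 ± 0.58 in knockout cells and 4.75 ± 1.26 in wild-type cells (SD, n = 3 each), and the difference was -0.92 ± 0.75 (SE). Its 95% interval ran from -2.55 to 0.72, and limma's test gave an adjusted p of 1. By column it was 0.15, -0.18 and -2.72. It rested on wild-type replicate 3, the female mouse: without that array it was -0.26, and without both mice tagged P6 it was -0.02.

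The other Itgam probes were dim. A_55_P1977929, which names the same transcript as the brightest probe, was well above background on 2 of 3 knockout and 1 of 3 wild-type arrays, with levels of -2.67, -2.03 and -2.91 in knockout cells and -2.76, -2.82 and -3.37 in wild-type cells, a difference of 0.44 ± 0.62 (SE). This is the opposite sign, and wild-type replicate 3, the highest array on the brightest probe, was the lowest here. A_55_P1977926 names another Itgam transcript and was well above background on 0 of 3 knockout arrays and on 1 of 3 wild-type arrays, so no fold is given (adjusted p = 1).

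Itgax, which encodes αX or CD11c, the α chain of complement receptor 4 and a common marker of dendritic cells, had levels of 3.20, 3.46 and 4.57 in knockout cells and 3.19, 4.49 and 4.31 in wild-type cells. Knockout replicate 3 was the highest array and replicate 1 was low in both genotypes. The difference was -0.25 ± 0.68 (SE, 95% interval -1.74 to 1.23), with 0.01, -1.04 and 0.26 by column.

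Itgal encodes αL, the α chain of LFA-1, which binds ICAM molecules and is abundant on lymphocytes. On the brighter of its probes, A_51_P466378, levels were 0.30, 0.93 and 0.99 in knockout cells and 0.73, -0.51 and 0.32 in wild-type cells. On the other, A_55_P2184601, they were -0.46, 0.27 and 0.77 in knockout cells and -0.86, -0.41 and -0.09 in wild-type cells. Knockout replicates 2 and 3 were the 2 highest arrays on both probes, while knockout replicate 1 lay inside the wild-type range on both. The differences were 0.56 ± 0.64 and 0.65 ± 0.64 (SE), or 1.47-fold and 1.56-fold higher in knockout cells, with 95% intervals of -0.84 to 1.96 and -0.75 to 2.04. Itgal was the only member with several probes well above background on all arrays that were numerically higher in knockout cells on each of them.

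**Figure D3:**
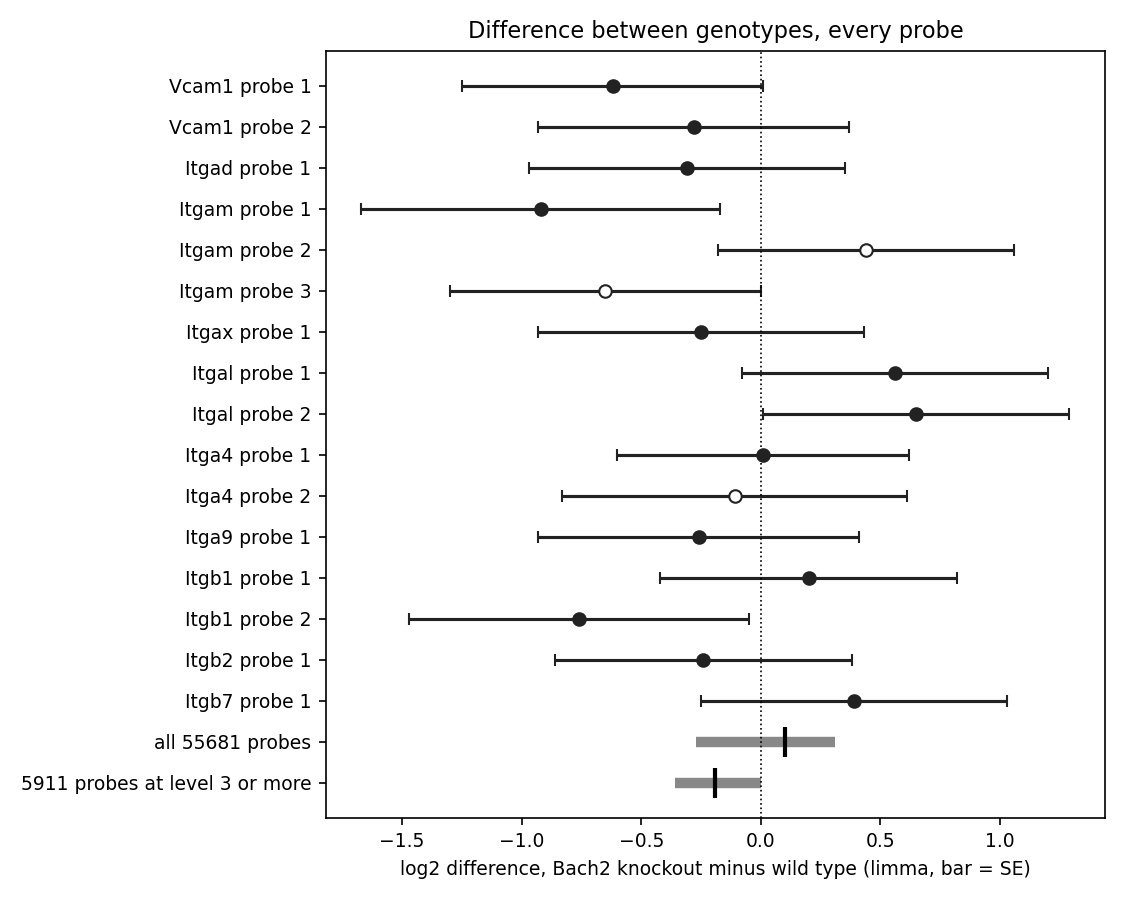
Log2 difference, Bach2 knockout minus wild type, for all 16 probes with the SE of limma's fit (n = 3 each). Filled points were well above background on all 6 arrays and open points were not. Grey bars are the middle 50% of all probes and of the probes at level 3 or more, with the median as a black mark at 0.10 and -0.19. Each member's 95% interval holds 0.

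4 of the α chain genes lie together on mouse chromosome 7. In the gene order of assembly GRCm38, Itgal is followed after 35 protein-coding genes by Itgam, Itgax and Itgad, which are direct neighbours. Vcam1 lies on chromosome 3, Itga4 on 2, Itga9 on 9, Itgb1 on 8, Itgb2 on 10 and Itgb7 on 15. The brightest Itgam probe gave 1 high array, wild-type replicate 3, and the Itgax probe did not. On the second probe of that Itgam transcript, wild-type replicate 3 was the lowest array. The promoters of Itgax and Itgam are shown because these neighbouring genes encode partners of the same β chain while the patterns of their brightest probes differed. Both are RefSeq sequences of GRCm38.p6, plus strand, from 250 bases before to 50 bases after the start of transcription, Itgam at chr7:128062390-128062689 and Itgax at chr7:128129300-128129599. Capitals mark a match to the AP-1 core TGANTCA, whose sequence BACH and AP-1 factors can both read within a longer element.
Itgam: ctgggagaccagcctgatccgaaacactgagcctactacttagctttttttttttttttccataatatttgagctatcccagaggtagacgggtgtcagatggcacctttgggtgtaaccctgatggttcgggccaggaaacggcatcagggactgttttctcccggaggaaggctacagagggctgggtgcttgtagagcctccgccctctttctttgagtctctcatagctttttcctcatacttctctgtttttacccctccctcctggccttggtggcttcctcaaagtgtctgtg
Itgax: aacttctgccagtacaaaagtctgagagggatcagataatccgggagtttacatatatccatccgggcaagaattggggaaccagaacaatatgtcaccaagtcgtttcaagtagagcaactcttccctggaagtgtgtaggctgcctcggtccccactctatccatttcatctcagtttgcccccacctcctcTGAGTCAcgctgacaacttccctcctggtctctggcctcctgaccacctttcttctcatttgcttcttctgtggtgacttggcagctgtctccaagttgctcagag

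6 of the 10 members had a promoter in the RefSeq table: Itgam, Itgax, Itga4, Itga9, Itgb1 and Itgb7. Both strands were searched. TGANTCA occurred in 2 of these 6, at -56 to -50 from the start of Itgax and at 38 to 44 in the window of Itga9, against 7.81% of all 32851 promoters of this length. The Itga9 window belongs to a start inside the gene, 104983 bases after the annotated beginning, and that of Itgb7 to a start 1470 bases inside. The PU.1 sequence GAGGAAGT, read by a master regulator of macrophages, occurred in 1 of 6, on the reverse strand of the Itgb7 window, against 3.20% of all promoters. The kappa B sequence GGGANTTTC, read by NF-κB, which drives VCAM-1 in activated endothelium, occurred in 0 of 6, against 1.11%. Letters in a window are a description and say nothing of binding in these cells.

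Chains of the same receptor did not all follow the same order of arrays. Likeness was measured on the brightest probe of each gene, as the root mean square difference of levels over the 6 arrays after centring each gene. A value of 0 is an identical pattern, and all 45 pairs of the 10 genes were computed. Dimmer probes, such as the Itgb1 probe of opposite sign, were not compared. Itgax and Itga9 were closest at 0.10, followed by Itga4 and Itgb1 at 0.14, which form VLA-4. Itgad and Itgax gave 0.21, as did Itgad and Itga9. Itgb2 differed by 0.26 from Itgad and by 0.30 from Itgax, but by 0.69 from Itgal and by 0.80 from Itgam. It was as close to Itga4, at 0.23, and Itga9, at 0.26, which are no partners of β2. Itga4 differed by 0.49 from Itgb7, and Itga9 by 0.37 from Itgb1. Itgam and Itgal formed the most unlike pair at 1.22. All pairs share the same 6 arrays and their scaling, so these values are descriptions.

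**Figure D4:**
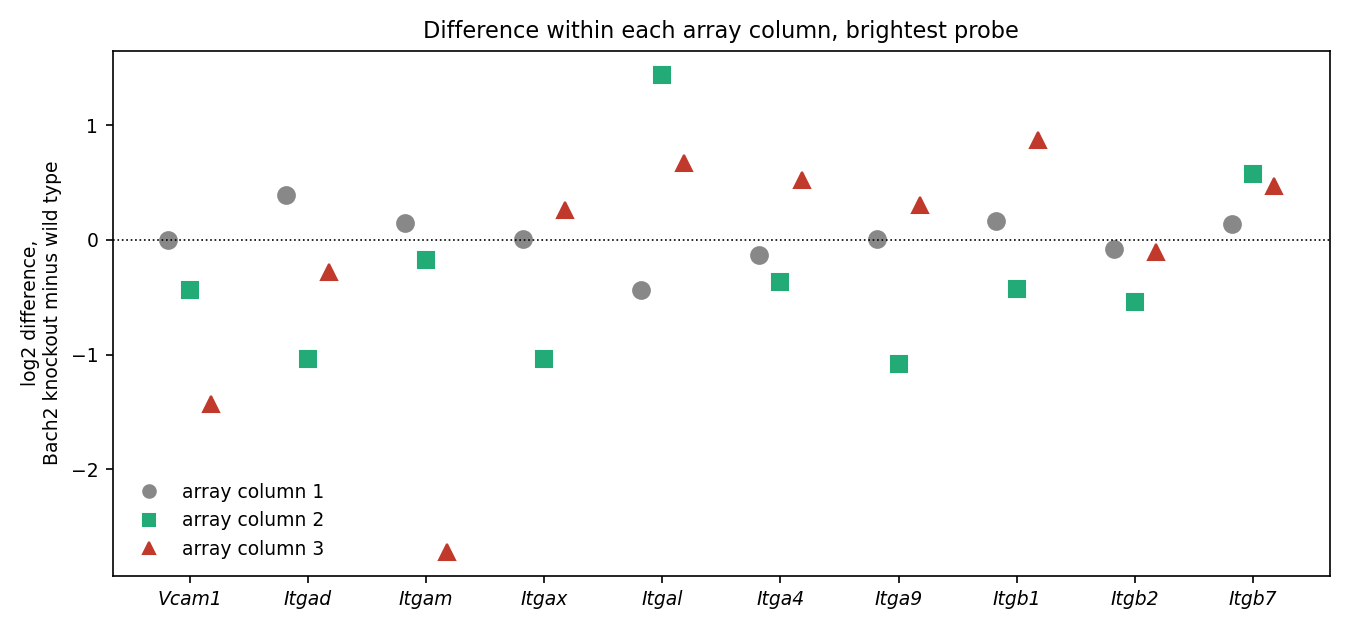
Log2 difference, Bach2 knockout minus wild type, within each of the 3 array columns for the brightest probe of each gene. Itgb7 lies above 0 and Itgb2 below 0 in all 3 columns, Itgam is at -2.72 in column 3 and close to 0 in the others, and Itgal runs from -0.44 in column 1 to 1.44 in column 2.

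Among 11926 named probes well above background on all arrays, those most like Vcam1's brighter probe belonged to Ppp1r11, an inhibitor of protein phosphatase 1, at a root mean square difference of 0.072, to Slc40a1, the iron exporter ferroportin, at 0.113, to Nfkbib, an inhibitor of NF-κB, at 0.134, to Pld3 at 0.137 and to Pold4, a subunit of DNA polymerase delta, at 0.146. Their differences between genotypes were between -0.40 and -0.73. Those most like Itgad were Prdx1, a peroxiredoxin, at 0.074, Gtpbp6 at 0.091, Slco2b1, an organic anion transporter, at 0.097, R3hdm2 at 0.103 and Lilra6 at 0.109, with differences between -0.14 and -0.42.

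In 4 lists of other integrin subunits, ligands, activators and signalling proteins, read on the brightest probe of each gene, 0 genes were called by adjusted p and 0 had an unadjusted p under 0.05. Among all probes these shares were 0% and 0.948%, so a count of 0 in lists of this size is near the background. Of 17 other integrin subunits, 15 were found on the array, 8 were numerically higher and 7 lower in knockout cells, with a median of 0.05. The 5 that were well above background on at least 3 arrays had 3 higher and a median of 0.69. The 3 higher were Itga6, Itga8 (0.70 ± 0.85) and Itgav (0.79 ± 0.92, SE), all with mean levels below 0. Itgb5, the partner of αV in a vitronectin receptor, gave -0.31 ± 0.64 (SE), and Itgb3, whose product forms the αVβ3 and platelet receptors, gave -0.36 ± 0.74. The smallest p-values in this list belonged mostly to dim probes: Itgb6 was well above background on 1 knockout array and no wild-type array, and Itga1 on no knockout array and 1 wild-type array, so neither is given a fold (adjusted p = 1). Itga6, the α chain of laminin receptors, gave 0.69 ± 0.76 (SE, adjusted p = 1; well above background on 3 knockout arrays and 1 wild-type array), and Itga2b, the α chain of the platelet fibrinogen receptor, was well above background on none.

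Of 17 integrin ligands and counter-receptors, 11 were numerically higher and 6 lower, with a median of 0.28, but the 7 that were well above background on at least 3 arrays had 2 higher and a median of -0.17. Among these 7, F11r, the junctional adhesion molecule JAM-A that binds αL, gave -0.52 ± 0.65 and C3, the source of the complement fragment bound by αM and αX, gave -0.47 ± 0.61 (SE). Tnc, the matrix protein tenascin C, was well above background on 1 knockout array and no wild-type array (adjusted p = 1), and Jam2 was well above background on none.

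Of 18 genes of integrin activation and linkage to actin, 6 were numerically higher and 12 lower, with a median of -0.10, and the 14 well above background on at least 3 arrays had 3 higher and a median of -0.12. Tln1, the talin that switches integrins to the active state, gave -0.53 ± 0.63 (SE). Tln2, its paralog, was well above background on 1 knockout array, at a level of 1.05, and on no wild-type array. Actn1, an actin crosslinker, was so on no knockout array and 1 wild-type array (adjusted p = 1 for both). Fermt2, a kindlin, was well above background on no array. Of 15 signalling genes, 1 was numerically higher and 14 lower, with a median of -0.24. The 14 well above background on at least 3 arrays had 0 higher and a median of -0.28. Bright probes had a median of -0.19 with 74.7% below 0, but not all genes of this list reach that range. Fcer1g, the adaptor of Fc receptors and of β2 integrin signalling, gave -0.62 ± 0.65 and Lims1, an adaptor of integrin-linked kinase, -0.56 ± 0.65, while Src, the 1 gene above 0, was well above background on none of the arrays.

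Markers of the sorted cells and of other splenic cells were read on the same arrays, since several integrin genes are expressed in more than 1 of these cell types. All 10 red pulp macrophage markers found on the array, such as the transferrin gene Trf (-0.70 ± 0.65, SE) and Slc40a1 (-0.73 ± 0.62), were well above background on at least 3 arrays, and 9 or 10 were so on each array. All 10 were numerically lower in knockout cells, with a median of -0.53 and 0 called. 6 of the 10 had a mean level of 7 or more, where the median of all probes was -0.39. A list's score is the mean of its centred levels over genes well above background on at least 3 arrays. For red pulp macrophages it was -0.47, -0.20 and -0.21 in knockout cells and -0.24, 0.26 and 0.86 in wild-type cells. Wild-type replicate 3, highest here, was also highest on the brightest probes of Vcam1 and Itgam, but not on their other probes. It was narrowly highest for Itgad (6.12, against 6.11 on wild-type replicate 2) and Itgb2 (5.99 against 5.94).

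Genes of lymphocytes were present on every array. T cell markers, such as Cd2 (0.42 ± 0.65, SE) and Cd3d (1.06 ± 0.84), were all 12 numerically higher in knockout cells with a median of 0.98, and 10 or 11 of the 12 were well above background on each array. Their score was 0.30, 1.10 and 0.09 in knockout cells and -0.37, -0.33 and -0.78 in wild-type cells, without overlap. NK and cytotoxic cell markers, such as Ccl5 (0.66 ± 0.69) and Gzma (1.95 ± 0.71), were all 11 higher with a median of 0.76, and 10 or 11 were well above background on each array. Their score was 0.06, 1.17 and 0.40 in knockout cells and -0.41, -0.31 and -0.91 in wild-type cells. 4 of the 12 T cell markers and 4 of the 11 NK and cytotoxic markers were higher on each knockout array than on any wild-type array, against 0.684% of all probes. So were 2 of the 12 neutrophil markers. Lower on each knockout array than on any wild-type array were 2 of the 10 red pulp markers, Adgre1 and Slc40a1. The marginal zone and metallophilic, B cell and platelet lists had 1 such lower marker each, against 1.85% of all probes. The 2 red pulp markers separated narrowly. For Adgre1 the highest knockout and the lowest wild-type level were both 7.08 after rounding, and for Slc40a1 they were 7.59 and 7.62. The marker lists were chosen with earlier results of these data known, so these counts are descriptions. No marker passed limma's test after adjustment. With an unadjusted p under 0.05 there were 2 T cell markers, 2 NK and cytotoxic markers and 1 neutrophil marker higher, and 1 marginal zone macrophage marker and 1 platelet marker lower, against 0.948% of all probes in either direction. Itgal and Itgb7, both expressed by lymphocytes, were numerically higher in the same knockout cells, and the part of lymphocyte RNA in their values was not tested. Itga4 and Itgb1, also expressed by lymphocytes, differed by 0.01 and 0.20 on their brighter probes, and the other Itgb1 probe gave -0.76. Itgb2, which encodes the partner of αL, differed by -0.24.

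Among other cells that carry αM, neutrophil markers had a median of 0.85, with 9 of 12 higher in knockout cells. Csf3r gave -0.23 ± 0.60 and S100a9 gave 0.59 ± 0.86 (SE). The neutrophil score was 0.16, 1.51 and -0.37 in knockout cells and -0.48, 0.41 and -1.23 in wild-type cells, lowest on wild-type replicate 3, where the brightest Itgam probe was highest. From 8 to 12 of the 12 markers were well above background on each array. The monocyte score was -1.23, 0.13 and 0.67 in knockout cells and -0.63, 0.79 and 0.26 in wild-type cells. Of the 7 monocyte markers 3 were higher in knockout cells, with a median of -0.37, and 6 or 7 were well above background on each array. Nr4a1 gave 0.03 ± 0.77 and Treml4 -0.37 ± 0.63.

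Dendritic cell markers, of interest for Itgax, had a median of 0.00, with 5 of 10 higher, and scores of -0.10, 0.15 and 0.13 in knockout cells and -0.35, 0.64 and -0.46 in wild-type cells. Siglech gave -0.47 ± 0.62 and Batf3 -0.20 ± 0.64 (SE), and 8 to 10 of the 10 were well above background on each array. B cell markers had a median of 0.03, with 6 of 10 higher and Cd79b at 0.09 ± 0.63 and Ms4a1 at 0.56 ± 0.73. Platelet markers were all 7 lower, with a median of -0.93, Pf4 at -1.51 ± 0.96 and Ppbp at -0.93 ± 0.91. Of the 7, 5 were well above background on at least 3 arrays. Gp1ba, the platelet marker in the counts above, was so on no knockout array and 2 wild-type arrays. Marginal zone and metallophilic macrophage markers were all 4 numerically lower, with a median of -0.41, Marco at -1.59 ± 0.62 and Nr1h3 at -0.49 ± 0.62. Siglec1 differed by only -0.02 ± 0.70, and Cd209b was well above background on 1 knockout and 1 wild-type array. Of 11 endothelial and stromal markers 4 were higher, with a median of -0.04, while the 6 that were well above background on at least 3 arrays had 0 higher and a median of -0.14, with Stab2 at -0.18 ± 0.67 and Kdr at -0.42 ± 0.68. The part of these cells in any integrin value was not tested.

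**Figure D5:**
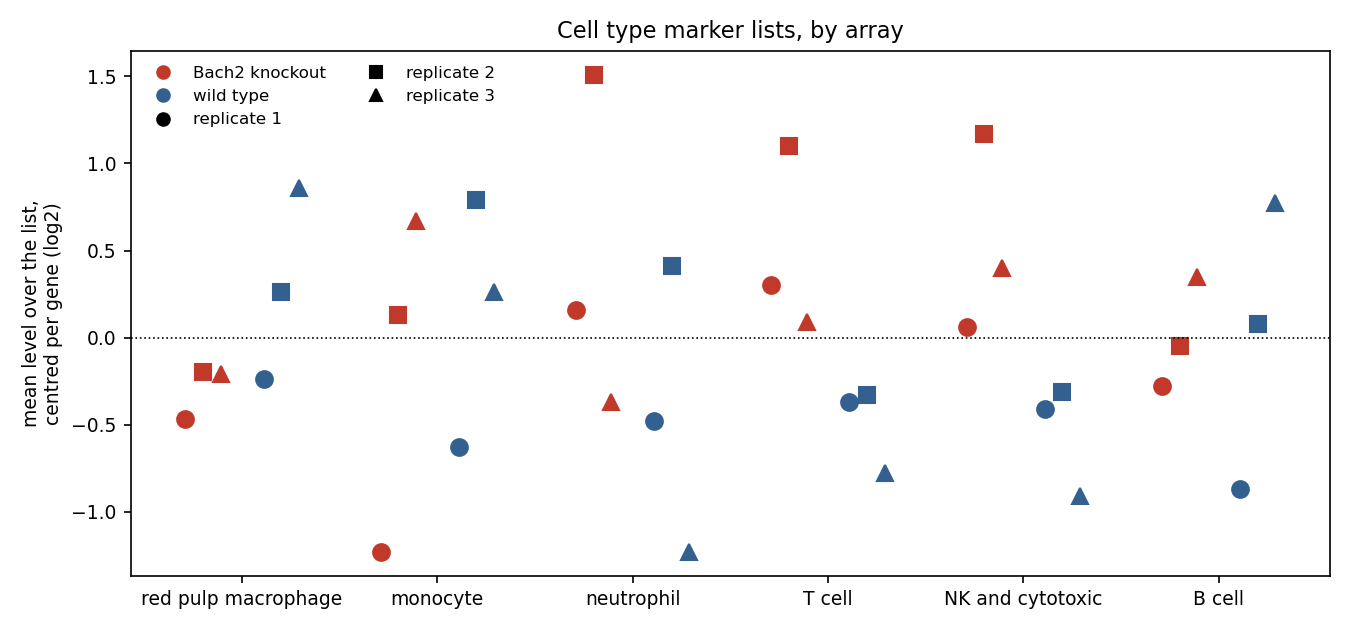
Mean centred level (log2) of 6 marker lists on every array, Bach2 knockout in red left of wild type in blue. The T cell and the NK and cytotoxic lists do not overlap between genotypes, with the highest values of 1.10 and 1.17 on knockout replicate 2, and the red pulp list is highest, at 0.86, on wild-type replicate 3.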

How the data were processed

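The deposited scanner files give an intensity for each spot. The submitters' processing notes name Agilent Feature Extraction 9.1 and the file headers name version 10.7.3.1. Per the file headers, background was subtracted and spatial trends removed from each array's intensity values, and from the values no scaling between arrays was done. Other columns, per the file headers, mark outlier spots and signals well above background. Outlier spots, 141 to 283 per array, were set to missing, control spots left out, and spots of a probe averaged, which left 55681 probes. Levels were log2 values minus the array's 75th percentile. Accessions were named, without versions, through a RefSeq gene table of GRCm38, which named 26413 probes and left 29268 unnamed. The array design uses an older assembly, so that table served for names and gene order only.

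Genotypes were compared over all probes, with no filter on dim probes, in limma 3.58.1 (R 4.3.3, lmFit and eBayes), and p-values were adjusted by Benjamini-Hochberg with a threshold of 0.05. The fit was tested on simulated data. Replicates are separate mice, numbered in record order. The members, marker lists and pathway lists were chosen with earlier results of these data known. Named were all members, Bach2 and the 5 genes most like Vcam1 and Itgad. Per pathway list, up to 2 genes with the smallest p in each direction were named, and per marker list the 2 brightest. Itgb3, Itgb5, Icam4, Itgav, Itga8, Adgre1 and Gp1ba were added after their values were seen. Siglec1 and Cd209b were also named outside this rule. Marker lists are those of the report. Cd68, Ly6c2, Itga10 and Itgae were not matched to a probe. The authors' deposited table of 279 probes lists 0 member probes and was not used. Alternatives were a filter on dim probes (at least 3 arrays well above background), normexp with an offset of 50 on the median signals, quantile and median scaling, the array column as a block, sex as covariate, leaving out the P6 mice or each array, keeping outlier spots, a trended robust eBayes, other probes and, chosen after seeing the data, the 75th percentile over spots.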

Additional observations from a re-analysis of the deposited data

How the results depend on the processing

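The member probes gave 0 calls under all 16 alternatives, adjusted or unadjusted, with 14 of the 16 probes fitted under the filter on dim probes. Sex as covariate is the same fit as leaving out wild-type replicate 3, the only female mouse, and adds no separate check. Over all probes 0 were called, except for 3 with normexp and 18 with a trended and robust eBayes, and between 0.884% and 2.72% of the probes fitted had an unadjusted p under 0.05 in the alternatives. The members' median of -0.25 ranged from -0.53 without wild-type replicate 1 to -0.01 with quantile normalization. Scaling to the array median moved the median of all probes to 0.23, that of the members to -0.11 and that of bright probes to -0.05. Vcam1 (-0.90 to -0.07), Itgad (-0.76 to -0.04), Itga9 (-0.67 to -0.05), Itgal (0.21 to 0.83) and Itgb7 (0.10 to 0.67) kept their sign under all alternatives run. Itga4 turned to -0.03 with normexp, -0.01 with sex as covariate, -0.25 without both P6 mice, -0.11 on its other probe and 0.00 with outlier spots kept, and ran from -0.24 to 0.13 when each array was left out. Itgb1 turned to -0.13 without both P6 mice and -0.76 on its other probe, and ran from -0.09 to 0.40 when each array was left out. Itgax ran from -0.67 to 0.02 when each array was left out, Itgb2 turned to 0.02 with quantile normalization, and Itgam turned to 0.44 on its second probe and ran from -1.53 to -0.26 when each array was left out. The cause was not tested. Replicate numbers follow record order and pair no mice, and the labels share only the tag P6 between genotypes. Array columns pair 1 mouse of each genotype by position, and the fit with the column as a block changed no call. Normexp used median signals, since the scanner files used here give no mean signal. The authors' table could not be run as an alternative because it lists 0 member probes. Signal over background limits the dimmer Itgam probes and the dimmer Itga4 probe. The brighter Vcam1 probe lies in the narrow range of the brightest signals, and the part of this range in its difference was not tested.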

Other observations

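2 genes of the pathway lists, chosen after their values were seen, varied widely between mice of the same genotype. Icam4, an erythroid adhesion molecule that binds leukocyte integrins, had levels of 5.45, 4.73 and 1.24 in knockout cells and 5.95, 1.45 and 1.53 in wild-type cells, and its difference was 0.83 ± 1.28 (SE, n = 3 each). 2 knockout arrays and 1 wild-type array were high, and the other 3 low. Itgb3 had levels of 0.73, 2.24 and 0.94 in knockout cells and 1.49, 2.79 and 0.70 in wild-type cells. The platelet chemokine gene Pf4 had levels of 2.57, 4.26 and 1.98 in knockout cells and 5.07, 5.99 and 2.27 in wild-type cells. For both genes replicate 2 was the highest array of each genotype.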
